A study of Mus musculus with 24 samples.

Results

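p53 and its target genes were followed across 4 liver genotypes: Trp53, which encodes p53, and the targets Cdkn1a, Mdm2, Ccng1, Btg2, Bax, Phlda3, Trp53inp1, Gdf15 and Eda2r. These 10 genes were chosen by name, with earlier results of these data known. They are the rows with these symbols among the 24319 genes of each deposited table. There was 1 table for whole liver and 1 for isolated hepatocytes (the parenchymal cells of the liver). All 10 were found in both tables. The mice were males aged 2 months, with 3 biological replicates behind each genotype in each table. WT mice were C57/BL6, and their label gives neither a floxed allele nor a Cre transgene. IkkB KO mice were Alb-Cre+;IkkBf/f, Shp2 KO mice were Alb-Cre+;Shp2f/f, and Double KO mice were Alb-Cre+;IkkBf/f;Shp2f/f. IkkB (gene Ikbkb) is a kinase upstream of NF-κB, and Shp2 (gene Ptpn11) is a phosphatase needed for Ras-Erk signalling. Cre under the albumin promoter acts in hepatocytes, so macrophages, endothelial cells and stellate cells keep both genes.

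p53 is a transcription factor that is held at a low level by the ubiquitin ligase Mdm2 and is stabilised mainly as a protein after DNA damage, oncogene activity or other stress. It binds paired half-sites in DNA and switches on genes that stop the cell cycle, repair DNA, trigger cell death or restrain growth signals, as well as Mdm2 itself, which closes a negative feedback loop. In liver it is known as a brake on hepatocyte proliferation and on liver cancer. Several of its targets, Cdkn1a and Gdf15 among them, are also induced by other stress pathways without p53.

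The sequences before the transcription starts show where these genes carry letters that p53 could recognise. RefSeq windows of 300 bases (250 before to 50 after the start, build GRCm38.p6) were available for 9 of the 10 genes. The p53 half-site consensus is 10 bases long and reads the same on both strands. It was present in the windows of 5 of these 9 genes, which had 11 windows together, and in 2745 of all 32851 windows (8.36%). The first count is of genes and the second of windows, so their shares are not directly comparable. Cdkn1a had 2 windows. The one shown held 2 half-sites separated by 12 bases, at 73 to 64 and 51 to 42 bases before its start. The 10 bases directly after the second half-site depart from the consensus only at their first base and were not marked. A pair separated by at most 13 bases occurred in 24 of all windows (0.0731%). The Cdkn1a sequence is shown whole up to the start because Cdkn1a varied most between genotypes in both tables, and 50 bases around the single half-site are shown for the others. Half-sites are in capitals.
Cdkn1a, chr17:29090729-29090978, plus strand: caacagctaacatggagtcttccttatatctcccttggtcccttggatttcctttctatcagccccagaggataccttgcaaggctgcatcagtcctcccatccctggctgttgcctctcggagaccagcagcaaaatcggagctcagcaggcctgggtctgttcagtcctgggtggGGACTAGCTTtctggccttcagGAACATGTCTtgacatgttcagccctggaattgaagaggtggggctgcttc
Trp53, chr11:69580264-69580313, plus strand: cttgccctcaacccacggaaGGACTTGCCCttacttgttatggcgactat
Mdm2, chr10:117710915-117710964, minus strand: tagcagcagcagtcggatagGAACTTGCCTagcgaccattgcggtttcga
Ccng1, chr11:40755442-40755491, minus strand: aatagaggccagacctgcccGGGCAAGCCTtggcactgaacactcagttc
Bax, chr7:45467070-45467119, minus strand: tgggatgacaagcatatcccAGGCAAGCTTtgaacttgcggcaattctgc
The windows of Btg2, Phlda3, Gdf15 and Eda2r held no match. Response elements outside such windows are known, for example within Mdm2, and a match is a string of letters, not a measured binding site.

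The deposited tables give 1 pooled expression value per gene and genotype, FPKM by the convention of Cuffdiff (fragment counts divided by transcript length and by the size of the library). No value per replicate and no library size is in them, so no SD can be given and depth is unknown. A gene is said to have risen or fallen where the q-value (a p-value adjusted for multiple testing) in the authors' deposited table was under 0.05, provided that 1 of both genotypes reached a value of 0.1. The smallest deposited p-value of Cuffdiff was 5e-05 in both tables. It gave the smallest q-values, 0.000955 in liver and 0.00048 in hepatocytes, so genes that share such a q-value are not ranked by it. Sizes of differences are given on the log2(value + 1) scale, which understates changes of low genes, and folds are plain ratios of the deposited values. The labels were checked on the deleted genes: Ikbkb and Ptpn11 were called lower than WT in every genotype labelled as lacking them, where they fell by 39.5% to 72.6% in the authors' deposited table. Of 12 hepatocyte markers, Alb and Serpina1a were listed at 0 in all 8 groups, and Apoa1 in WT and IkkB KO liver and in IkkB KO hepatocytes. Cuffdiff gave these rows the status HIDATA, its mark for a locus with too many fragments to process, so the zeros are not measured levels. The other 9 had values above 0 in every group. In bulk RNA, fewer cells of a type and less RNA per cell cannot be told apart.

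Levels spanned a wide range in WT liver. Bax, which opens the outer mitochondrial membrane in apoptosis, had the highest value among the 10 genes at 37.9. Trp53 followed at 17.9, Mdm2 at 11.0, Ccng1 at 8.65, Trp53inp1 at 6.43, Btg2 at 4.67, Gdf15 at 3.63, Cdkn1a at 1.80 and Phlda3 at 0.869. Eda2r, a receptor of the tumour necrosis factor receptor family, was near the floor at 0.0654. No spread is available to separate neighbours in this order. Eda2r ranged from 0.051 to 0.183 over all 8 groups and was not tested in any comparison, so 9 of the 10 genes entered each count below.

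**Figure D1:**
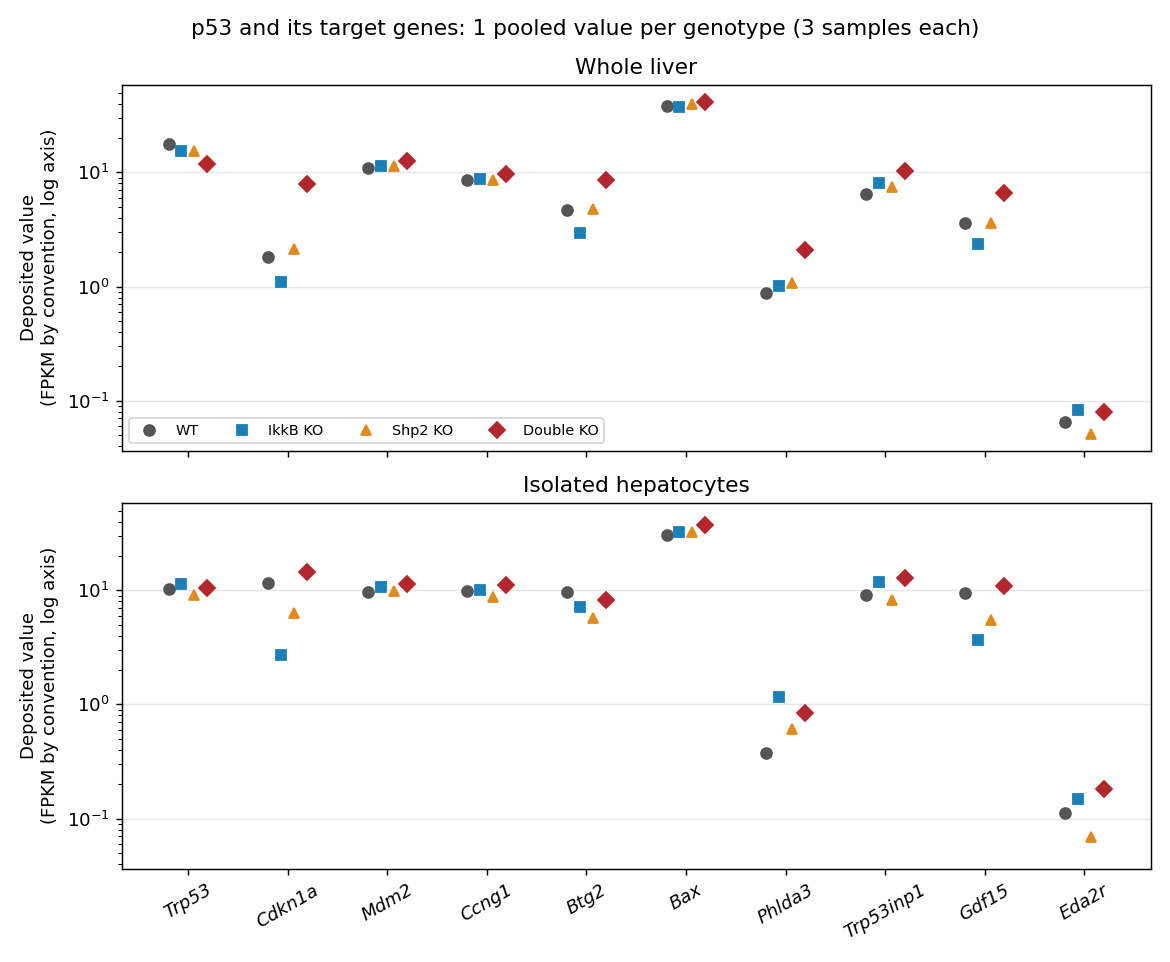
Deposited value (FPKM by convention, log axis) of the 10 genes in whole liver (top) and isolated hepatocytes (bottom), with 1 point per genotype, each pooled over 3 samples. Bax, Mdm2 and Ccng1 show nearly coincident points, while Cdkn1a runs from 1.09 to 7.98 in liver and from 2.73 to 14.3 in hepatocytes.

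In liver lacking both proteins, 5 of the 9 tested genes rose against WT and 1 fell. Among all tested genes, 11.5% were higher and 6.62% were lower in this comparison (18.1% in either direction). The median difference of the 9 genes was 0.61, beside -0.03 over all tested genes. Because the genes were chosen with earlier results of these data known, such counts and medians are a description and not an independent test.

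Cdkn1a, which encodes the cyclin-dependent kinase inhibitor p21, had values of 1.80 for WT, 1.09 for IkkB KO, 2.14 for Shp2 KO and 7.98 for Double KO liver. Double KO thus stood alone, 4.42-fold above WT (log2 difference 1.68, q = 0.000955 in the authors' deposited table). It also exceeded IkkB KO by 7.30-fold and Shp2 KO by 3.72-fold, both at q = 0.000955 in the authors' deposited table. Shp2 KO was higher than IkkB KO (q = 0.0226), whereas neither single knockout passed the threshold against WT (the smaller q was 0.126, for IkkB KO). In the gene models of GENCODE M21, exons of Cdkn1a overlap a gene model of unknown coding status on the opposite strand, and strand was not stated for the counting.

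Btg2, an antiproliferative cofactor of messenger RNA deadenylation, was 4.67 for WT, 2.93 for IkkB KO, 4.79 for Shp2 KO and 8.66 for Double KO liver. Its rise in Double KO was 1.85-fold over WT (log2 difference 0.77, q = 0.000955 in the authors' deposited table). Gdf15, a secreted stress hormone of the TGF-β superfamily that curbs appetite, was 3.63, 2.37, 3.63 and 6.61 in the same order of genotypes. Double KO was 1.82-fold above WT for Gdf15 (log2 difference 0.72, q = 0.017 in the authors' deposited table). As for Cdkn1a, IkkB KO was the lowest and Double KO the highest of the 4 genotypes for both genes.

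Phlda3, which competes with the kinase Akt for membrane lipids, was 0.869 for WT, 1.01 for IkkB KO, 1.06 for Shp2 KO and 2.10 for Double KO liver. This 2.42-fold rise (log2 difference 0.73) had q = 0.00442 in the authors' deposited table. Trp53inp1, a nuclear stress protein that promotes p53 phosphorylation and autophagy, was 6.43, 8.08, 7.49 and 10.4 in the same order. It rose 1.61-fold in Double KO against WT (log2 difference 0.61, q = 0.00315 in the authors' deposited table). For both genes WT was the lowest genotype and the single knockouts lay between WT and Double KO.

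The negative regulator Mdm2 and 2 further targets did not pass the threshold. Mdm2 was 11.0 for WT, 11.3 for IkkB KO, 11.5 for Shp2 KO and 12.5 for Double KO liver (q = 0.674 for Double KO against WT in the authors' deposited table). Ccng1, which encodes cyclin G1, was 8.65, 8.81, 8.59 and 9.62 (q = 0.769). Bax was 37.9, 37.5, 39.8 and 41.8 (q = 0.785), and its exons overlap another gene model on the same strand. Highest and lowest genotype differed by 1.14-fold for Mdm2, 1.12-fold for Ccng1 and 1.12-fold for Bax, and none of them was called in any of the 11 comparisons of either table. Without replicate values this does not show that they were equal.

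Trp53 itself moved the other way. Its liver values were 17.9 for WT, 15.5 for IkkB KO, 15.3 for Shp2 KO and 11.9 for Double KO. The Double KO value was below WT (log2 difference -0.54, q = 0.0246 in the authors' deposited table), and both single knockouts lay between. These are transcript values, and p53 protein was not measured here.

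**Figure D2:**
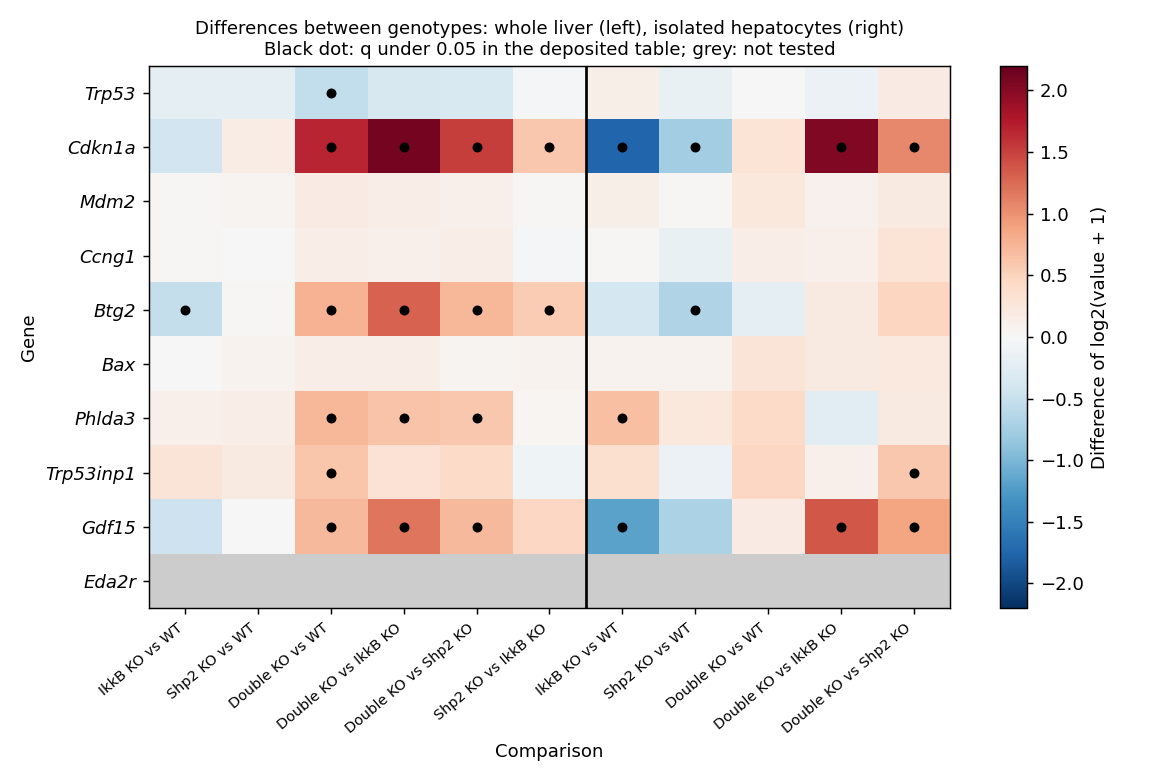
Difference in log2(value + 1) for each gene (rows) in the 6 liver and 5 hepatocyte comparisons (columns), with a black dot where the deposited q-value was under 0.05 and grey where the gene was not tested. Dots for higher values gather in the Cdkn1a, Btg2, Phlda3 and Gdf15 rows of the liver columns that involve Double KO, and the Mdm2, Ccng1 and Bax rows have none.

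Few of these genes passed the threshold in liver with a single deletion. In IkkB KO against WT, 1 of 9 fell and 0 rose, where 4.54% of all tested genes were called (2.37% higher and 2.17% lower). At an unadjusted p-value under 0.05, 3 genes were lower (Btg2, Cdkn1a and, at a Cuffdiff p-value of 0.04985, Gdf15) and 0 were higher. No share of all tested genes is given at that unadjusted cut, here or below, so such counts have no background beside them. The gene that fell was Btg2 (log2 difference -0.53, q = 0.023 in the authors' deposited table). This call rests on the adjustment over the whole table: with p-values adjusted within the comparison alone it was lost, at 0.067. In Shp2 KO against WT, Cuffdiff called 0 of 9 in either direction, and 0 had an unadjusted p-value under 0.05, while 9.33% of all tested genes were called (5.23% higher and 4.1% lower). The difference farthest from 0 in that comparison was that of Trp53, at -0.21, and the median of the 9 was 0.06 beside -0.03 over all tested genes.

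Double KO liver also differed from each single knockout. Against IkkB KO, 4 of 9 rose and 0 fell (19% of all tested genes were called, 11.5% higher and 7.5% lower). Against Shp2 KO, 4 of 9 rose and 0 fell as well (10.8% called, 7.94% higher and 2.83% lower). Cdkn1a, Btg2, Phlda3 and Gdf15 were the risers in both, with q from 0.000955 to 0.0322 in the authors' deposited table. Trp53inp1 passed in neither (q = 0.262 and 0.0947). Between the single knockouts, 2 of 9 were higher in Shp2 KO than in IkkB KO and 0 were lower (10.3% of all tested genes were called, 5.43% higher and 4.84% lower). These were Cdkn1a and Btg2 (q = 0.0201). The comparisons share genotypes, so their counts are not independent of each other.

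The sum of the single effects gives a reference for the Double KO, without a test because no replicate values were used here. For Cdkn1a in liver the log2 ratios to WT were -0.72 in IkkB KO and 0.25 in Shp2 KO, which sum to -0.47, whereas Double KO stood at 2.14. The summed effects would place Cdkn1a at 1.30, beside the deposited 7.98. Btg2 summed to -0.64 and stood at 0.89, and Gdf15 summed to -0.62 and stood at 0.86. Trp53inp1, in contrast, summed to 0.55 and stood at 0.69, and Trp53 summed to -0.43 and stood at -0.58. Phlda3 lay between these, with a sum of 0.51 and a Double KO ratio of 1.28.

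In isolated hepatocytes of Double KO against WT, 0 of 9 of the same genes passed the Cuffdiff threshold in either direction, where 13.6% of all tested genes were called (9.04% higher and 4.56% lower). At an unadjusted p-value under 0.05, 2 genes were higher and 0 lower: Phlda3 (adjusted q = 0.0931) and Trp53inp1 (adjusted q = 0.0521 in the authors' deposited table). The median difference was 0.23, beside 0.01 over all tested genes. Liver and hepatocytes were processed as separate tables, so the difference between them was not tested.

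Hepatocyte Cdkn1a was 11.5 for WT, 2.73 for IkkB KO, 6.38 for Shp2 KO and 14.3 for Double KO. It fell in both single knockouts, 4.21-fold in IkkB KO (log2 difference -1.74, q = 0.00048 in the authors' deposited table) and 1.80-fold in Shp2 KO (log2 difference -0.76, q = 0.0194). Double KO was near WT (q = 0.449) and above both single knockouts, with log2 differences of 2.04 and 1.06 at q = 0.00048 in the authors' deposited table. By value, the order of the 4 genotypes was thus IkkB KO, Shp2 KO, WT and Double KO from low to high. The authors deposited no comparison of Shp2 KO with IkkB KO for hepatocytes, so that step of the order was not tested.

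Gdf15 had that same order, with 9.53 for WT, 3.64 for IkkB KO, 5.51 for Shp2 KO and 10.9 for Double KO hepatocytes. Its fall in IkkB KO was 2.62-fold (log2 difference -1.18, q = 0.00048 in the authors' deposited table), and Shp2 KO missed the threshold at q = 0.0555. Double KO exceeded IkkB KO (log2 difference 1.36, q = 0.00048) and Shp2 KO (0.87, q = 0.00937). Btg2 was 9.62, 7.13, 5.71 and 8.27, and it fell in Shp2 KO (log2 difference -0.66, q = 0.0084 in the authors' deposited table). In Btg2 the lowest value was therefore that of Shp2 KO rather than IkkB KO, again without a test between them.

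**Figure D3:**
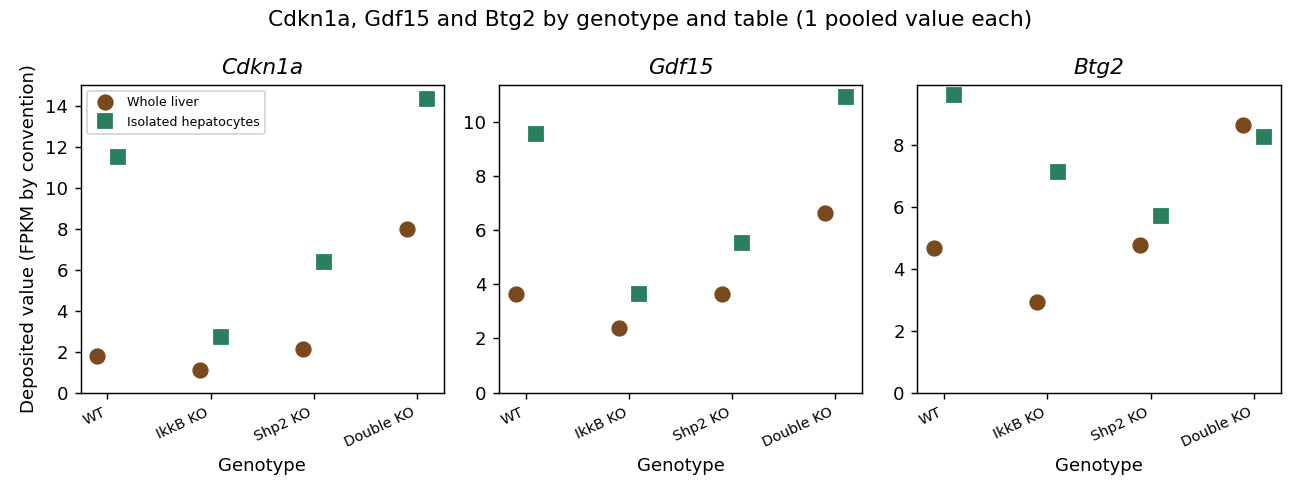
Deposited values (FPKM by convention) of Cdkn1a, Gdf15 and Btg2 in the 4 genotypes, circles for whole liver and squares for isolated hepatocytes, 1 pooled value each. In liver Double KO stands above the other genotypes (Cdkn1a 7.98 against at most 2.14). In hepatocytes Cdkn1a is high in WT and Double KO (11.5 and 14.3) and lower in the single knockouts. Hepatocyte Gdf15 and Btg2 also have WT and Double KO highest by value, but not each of these differences was called.

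Phlda3 was the only one of the 9 tested genes that rose in IkkB KO hepatocytes, from 0.373 to 1.17 (log2 difference 0.66, q = 0.0194 in the authors' deposited table), and adjusted within the comparison its q was 0.0546. Its Shp2 KO and Double KO values were 0.609 and 0.835. Trp53inp1 was 9.07 for WT, 11.9 for IkkB KO, 8.18 for Shp2 KO and 12.9 for Double KO, and it was higher in Double KO than in Shp2 KO (log2 difference 0.60, q = 0.00687). Trp53 was 10.3, 11.4, 9.10 and 10.4 and was not called in any hepatocyte comparison. Mdm2 ranged from 9.61 to 11.4, Ccng1 from 8.80 to 11.1 and Bax from 30.6 to 37.5.

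Counted together, 1 of 9 rose and 2 fell in IkkB KO hepatocytes (9.41% of all tested genes were called, 7.6% higher and 1.81% lower). In Shp2 KO, 0 rose and 2 fell (11.7% called, 7.13% higher and 4.53% lower). Against IkkB KO, Double KO hepatocytes had 2 higher and 0 lower of 9 (11.4% of all tested genes called, 5.75% higher and 5.62% lower), which were Cdkn1a and Gdf15. Against Shp2 KO there were 3 higher and 0 lower of 9 (6.76% called, 3.44% higher and 3.31% lower), with Trp53inp1 in addition. The sum of the single effects would place hepatocyte Cdkn1a at 1.52 and Gdf15 at 2.11, beside deposited Double KO values of 14.3 and 10.9.

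WT hepatocytes and WT liver were set side by side across separately normalised tables, as a description. Cdkn1a was 6.38 times as high in WT hepatocytes as in WT liver, and only 0.0409% of 9783 genes with a value of at least 1 in both had a ratio as high (median ratio 0.976). Gdf15 was 2.63 times as high (0.716% of genes at or above) and Btg2 2.06 times. In Double KO the same ratios were 1.80, 1.65 and 0.956. Trp53 stood at 0.579 and Phlda3 at 0.430 in WT. Cell isolation and the RNA extraction kit differed along with the kind of sample, so their parts in these levels cannot be told apart.

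Cdkn1a and Gdf15 also had like patterns over all 8 groups, after each table was centred on its own mean. Pearson's r between them was 0.98 over 8 pooled values, and Gdf15 ranked behind only Atp11a (0.99) and Snrpb (0.98) among 9405 genes compared with Cdkn1a. The genes most like Btg2 were Tbc1d20, Snap23 and Ddx54 (0.96 to 0.98). Mdm2 was most like Nt5dc2, Rrm1 and Lbr (0.97). Trp53 was most like Mcrs1 (0.996), Cops7b and Zfp266. With so few values these are descriptions, the groups share tables, and the deletion contrasts enter every pattern.

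Other genes of the pathway were read by role. Among 17 regulators of p53, which include the ligases and kinases that set its stability, 0 of 16 tested rose and 1 fell in Double KO liver (11.5% of all tested genes were higher and 6.62% lower). That was Rchy1, a ubiquitin ligase for p53, from 17.3 to 11.2 (q = 0.0333 in the authors' deposited table). The median difference of the list was -0.06, beside -0.03 over all tested genes. In Double KO hepatocytes Cuffdiff called 0 of 15 regulators, and 0 had an unadjusted p-value under 0.05. Both single knockouts also had 0 of 15 called in either table, with 0 at an unadjusted p-value under 0.05 in IkkB KO and 1 in Shp2 KO in each table.

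A further 35 p53 targets were sorted into 3 roles, and in Double KO liver 8 of 35 rose and 1 fell, where 11.5% of all tested genes were higher and 6.62% lower. Of the 11 arrest and repair targets, 3 rose and 1 fell. The polo-like kinase Plk3 rose from 47.5 to 105 and Gtse1, a p53-binding cell cycle protein, from 0.515 to 1.28, both at q = 0.000955 in the authors' deposited table. Psrc1 rose from 0.0574 to 0.346 (q = 0.0484), while the growth arrest and repair gene Gadd45a fell from 6.54 to 2.76 (q = 0.000955). The arrest targets thus moved in both directions, and their median difference was 0.10.

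Of the 12 death targets, 3 rose and 0 fell in Double KO liver, against the same shares over all tested genes (11.5% higher and 6.62% lower). Siva1, a death domain adaptor, rose from 5.68 to 11.8 (q = 0.00315 in the authors' deposited table), the death receptor Tnfrsf10b from 0.149 to 0.585 (q = 0.000955), and Pmaip1, which encodes Noxa, from 0.352 to 0.749 (q = 0.0454). Bbc3, which encodes Puma, was 3.57 in WT and 3.95 in Double KO and was not called. Of the 12 metabolic and stress targets, 2 rose and 0 fell: Ddit4, an inhibitor of mTOR signalling, from 4.35 to 8.01, and the autophagy gene Dram1 from 0.414 to 1.09 (both q = 0.000955 in the authors' deposited table). Sesn1, Sesn2, Tigar and Zmat3 were not called, with values in Double KO of 6.02, 1.91, 5.10 and 1.53. The median differences were 0.14 for the death targets and -0.07 for the metabolic and stress targets, beside -0.03 over all tested genes.

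Several of these further targets had also risen in Shp2 KO liver, where the 9 central genes had no call. There 6 of 34 tested rose and 0 fell (5.23% of all tested genes were higher and 4.1% lower), among them Plk3 from 47.5 to 111, Siva1 from 5.68 to 12.5 and Ddit4 from 4.35 to 11.3 (each q = 0.000955 in the authors' deposited table). Bbc3 rose from 3.57 to 5.78 in Shp2 KO (q = 0.0205). In IkkB KO liver 1 of 33 rose (Ddit4, to 7.90, q = 0.00175) and 1 fell (the kinase Plk2, from 4.13 to 2.47, q = 0.00892), where 2.37% of all tested genes were higher and 2.17% lower. Double KO and Shp2 KO share the WT values, so these rises are set side by side and not counted as repeats.

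Of the further targets in hepatocytes, 2 rose and 1 fell of 32 tested in Double KO, 2 rose and 0 fell of 30 in Shp2 KO, and 2 rose and 0 fell of 31 in IkkB KO. Over all tested genes, 9.04%, 7.13% and 7.6% were higher in these comparisons, in that order, so each share of risers was below the background and is no result about the targets as a group. The called genes are given by name. Gtse1 rose from 0.351 to 0.801 (q = 0.0288 in the authors' deposited table) and Dram1 from 0.150 to 0.409 (q = 0.0445) in Double KO. Prkab1, a subunit of the energy sensor AMPK, fell from 17.0 to 11.2 (q = 0.0173). In Shp2 KO the risers were Siva1, from 7.44 to 16.6, and the death receptor Fas, from 11.9 to 18.1 (q = 0.0488). In IkkB KO they were Apaf1, the core of the apoptosome, from 0.250 to 0.509 (q = 0.0378) and Dram1, to 0.541 (q = 0.0101).

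Among paralogs of the targets, calls were few and in both directions. Of 8 tested paralogs, 1 rose and 1 fell in Double KO against WT in each table, near the shares over all tested genes (11.5% higher and 6.62% lower in liver, 9.04% and 4.56% in hepatocytes). Ccng2, the paralog of Ccng1, rose from 2.84 to 5.32 in liver (q = 0.00248 in the authors' deposited table) and from 5.38 to 10.2 in hepatocytes (q = 0.00048). Phlda1, of the same family as Phlda3, fell from 53.5 to 29.7 in liver (q = 0.00315) and from 107 to 47.9 in hepatocytes (q = 0.00048). The paralogs of Cdkn1a, Cdkn1b and Cdkn1c, were not called against WT.

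**Figure D4:**
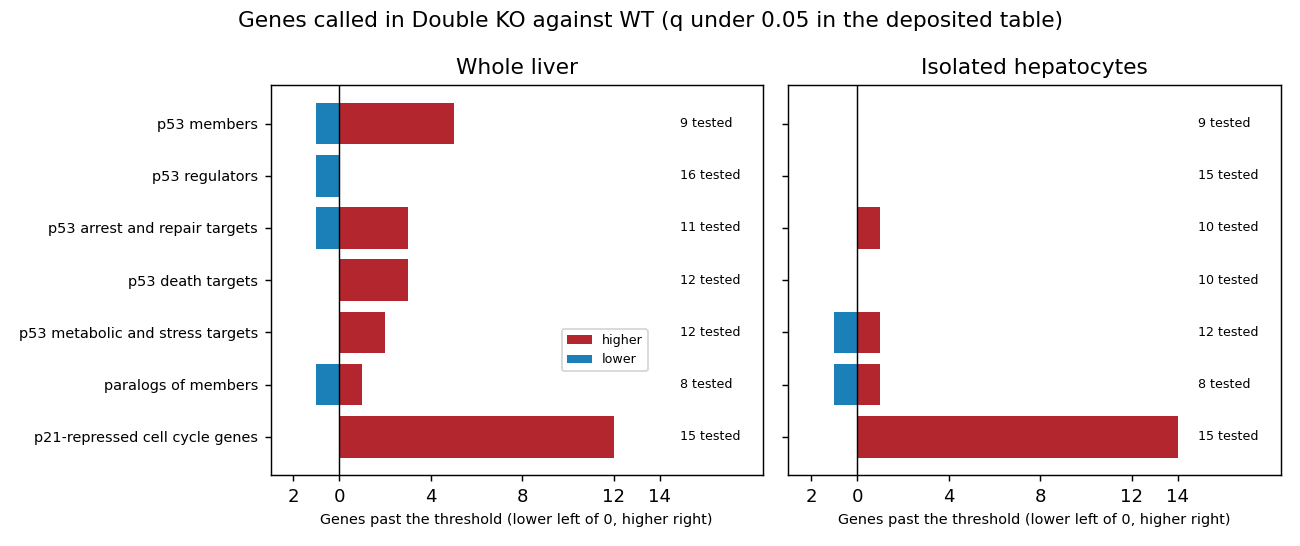
Numbers of genes past the threshold in Double KO against WT for the tested genes of each list, higher to the right of 0 and lower to the left, in whole liver and isolated hepatocytes. In liver 5 of 9 of the central genes (labelled p53 members) were higher and in hepatocytes 0, while cell cycle genes were higher in both (12 and 14 of 15).

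Cell cycle transcripts that p53 and p21 are known to repress were higher in Double KO liver, where Cdkn1a rose, and also in Shp2 KO liver, where Cdkn1a was not called (q = 0.745 in the authors' deposited table). Of 15 tested genes of this list, 12 rose and 0 fell in Double KO (11.5% of all tested genes were higher) and 9 rose and 0 fell in Shp2 KO (5.23% higher). In IkkB KO liver 1 of 11 rose and 0 fell (2.37% higher). The survivin gene Birc5 rose from 1.04 to 6.18, cyclin B2 (Ccnb2) from 0.487 to 3.72, and the mitotic kinase Cdk1 from 0.698 to 3.16 (each q = 0.000955 in the authors' deposited table). The summed value of the 16 genes was 12.02 for WT, 14.6 for IkkB KO, 22.2 for Shp2 KO and 39.3 for Double KO liver.

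In hepatocytes the cell cycle genes did not keep the order that Cdkn1a had. Their summed value was 9.77 in WT, where Cdkn1a was 11.5, and 40.3 in Double KO, where Cdkn1a was 14.3. Of 15 tested, 14 rose in Double KO and 0 fell, where 9.04% of all tested genes were higher and 4.56% lower. The median difference was 1.18, beside 0.01 over all tested genes. Top2a, a topoisomerase of dividing cells, went from 0.247 to 2.39 and Cdk1 from 0.458 to 2.85 (both q = 0.00048 in the authors' deposited table). In IkkB KO, where Cdkn1a fell, 7 of 13 rose (7.6% of all tested genes were higher) and the sum was 19.8. Shp2 KO had 4 of 13 higher (7.13% of all tested genes) and a sum of 15.7. The levels are sums over a mixed population and do not show whether the same cells carried both transcripts.

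**Figure D5:**
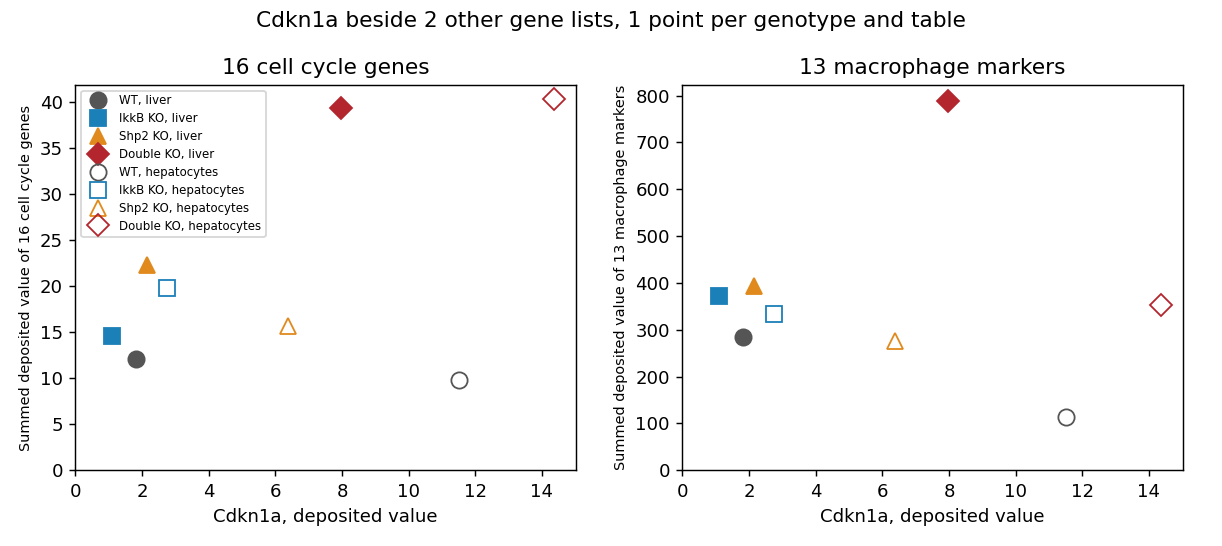
Deposited value of Cdkn1a (horizontal) against the summed deposited value of 16 cell cycle genes (left) and of 13 macrophage markers (right), filled symbols for liver and open symbols for hepatocytes, 1 point per genotype and table. Both Double KO points have high Cdkn1a and high cell cycle sums, while WT hepatocytes combine Cdkn1a at 11.5 with the lowest sums, 9.77 and 114.

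Some transcripts of other stress programmes that also reach Cdkn1a or Gdf15 moved as well, also in samples where neither of these was called. Of 10 genes of the integrated stress response, the programme of the factor Atf4, 4 rose and 0 fell in Double KO liver. The other 6 were not called. Among all tested genes, 11.5% were higher and 6.62% lower there. Fgf21 rose from 3.12 to 13.2, Asns from 3.50 to 8.35 and Atf3 from 1.14 to 3.02 (each q = 0.000955 in the authors' deposited table). Nupr1 rose from 3.74 to 7.06 (q = 0.0369). In Shp2 KO liver, where neither Cdkn1a nor Gdf15 was called, 2 of 10 rose and 0 fell (5.23% of all tested genes were higher and 4.1% lower). These were Asns, to 17.2, and Fgf21, to 7.46. In Double KO hepatocytes, where Gdf15 was near WT, 3 of 10 rose and 0 fell (9.04% of all tested genes were higher and 4.56% lower). Fgf21 went from 0.777 to 9.23 there. Of 11 immediate early genes, 3 rose and 2 fell in Double KO liver, beside the same liver shares of 11.5% and 6.62%. Among them were Klf6, from 1.62 to 5.56, and Dusp1, from 38.4 to 16.8. In IkkB KO liver, where Btg2 fell, 0 of 11 rose and 4 fell (2.37% of all tested genes were higher and 2.17% lower). In Shp2 KO hepatocytes, where Btg2 fell too, 3 of 11 rose and 3 fell (7.13% higher and 4.53% lower). In Shp2 KO liver, where Btg2 was not called, 0 of 11 rose and 2 fell (5.23% higher and 4.1% lower). The part of these programmes in the results was not tested.

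Markers of several other cell types moved with genotype as well. In Double KO liver, where 11.5% of all tested genes were higher and 6.62% lower, 12 of 13 macrophage markers rose. So did 7 of 12 stellate cell and fibroblast markers and 3 of 4 tested neutrophil markers. Only 1 of 12 endothelial markers rose, near the background share. Of 7 tested bile duct markers 1 rose and 1 fell, and 0 of 7 lymphocyte and 0 of 9 hepatocyte markers were called. The summed macrophage value was 285 for WT, 373 for IkkB KO, 393 for Shp2 KO and 789 for Double KO liver. In hepatocyte preparations it was 114, 334, 276 and 353 in the same order. IkkB KO preparations had 12 of 13 macrophage, 10 of 11 endothelial and 10 of 11 stellate and fibroblast markers higher than WT (7.6% of all tested genes were higher). Shp2 KO preparations had 11 of 13, 0 of 11 and 5 of 11 higher (7.13% of all tested genes). Double KO preparations had 13 of 13, 8 of 12 and 9 of 12 higher (9.04%). Of the hepatocyte markers, 1 of 9 tested was lower in IkkB KO (Cyp2e1, with 1.81% of all tested genes lower) and 1 of 10 in Shp2 KO (Apoa1, 4.53%). In Double KO preparations 0 of 10 were lower (4.56%), and 0 were higher in any of these preparations. Cdkn1a fell in the IkkB KO and Shp2 KO preparations. No macrophage, endothelial or stellate marker was at 0 in any group. Their part in the values of Cdkn1a and the other targets was not tested.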

How the data were processed

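PolyA RNA libraries (Illumina TruSeq v2) were made from 24 samples, 12 of whole liver and 12 of isolated hepatocytes, with different RNA extraction kits for each, per the labels' protocols. FastQC and Cuffdiff were run on build mm9, per the submitters' processing notes, without a stated version; the aligner is not given in the sources used. The authors deposited 1 pooled expression value per gene and genotype, with no unit named (other; FPKM by convention). The authors also deposited log2 ratios, p-values and q-values, per the file headers. The p-values test the difference between genotypes against the variation between the 3 replicates of each as Cuffdiff models it. Benjamini-Hochberg adjustment over all 6 liver pairs returned the deposited q-values (largest difference 5.27e-07). Over the 5 hepatocyte pairs it did not (0.284), so what those were adjusted over is unknown.

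Computations used pandas 2.3.3 and numpy 2.4.6 under Python 3.11.15, and figures matplotlib 3.10.9. Calls needed q under 0.05, a Cuffdiff test and a value of at least 0.1 in 1 genotype; differences used log2(value + 1). The adjustment was tested on simulated data. The 10 genes and the 16 gene lists were chosen with earlier results of these data known. All 10 genes were named; from each other list up to 4 called genes per comparison with WT could be named (smallest q first), and p53 pathway genes also when not called. Promoter sequences are RefSeq's, and no coordinates were mixed with mm9. Alternatives were a q-value under 0.01, adjustment within a comparison, other filters, pseudocount 0.1, a difference of at least 1 and centring on the median.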

Additional observations from a re-analysis of the deposited data

How the results depend on the processing

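Filters on low values (none, or at least 1) left the count of called genes among the 10 within 1.5 times in all 11 comparisons, and no called difference changed sign under any alternative run. A q-value under 0.01 took liver Double KO against WT from 6 to 4 (Gdf15 and Trp53 were lost), Double KO against IkkB KO liver from 4 to 3, hepatocyte IkkB KO against WT from 3 to 2, liver IkkB KO against WT from 1 to 0, Double KO against Shp2 KO liver from 4 to 2, Shp2 KO against IkkB KO liver from 2 to 0, and Shp2 KO against WT hepatocytes from 2 to 1. Among the other pathway genes, it took liver Shp2 KO against WT from 17 to 10, hepatocyte IkkB KO against WT from 10 to 3 and hepatocyte Shp2 KO against WT from 8 to 4. Adjustment within a comparison took liver IkkB KO against WT from 1 to 0 and the other pathway genes of hepatocyte Shp2 KO from 8 to 4. Requiring a log2 difference of at least 1 left 1 of 6 genes in liver Double KO against WT, 1 of 4 in Double KO against Shp2 KO liver and 1 of 3 in Double KO against Shp2 KO hepatocytes, and 0 in liver IkkB KO against WT, liver Shp2 KO against IkkB KO and hepatocyte Shp2 KO against WT. Of 99 differences of single genes, the pseudocount 0.1 changed the sign of 0 and centring on the median that of 3, none of them called. A q-value under 0.01 ended 10 single calls and adjustment within a comparison 2. No paired analysis was possible because the tables hold no value per replicate, so leaving out replicates was not run either. Depth is unknown, and Phlda3 and Eda2r, with the lowest values, are the least certain.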
